A study of Mus musculus with 2 samples.

Results

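The neural tube is divided along its dorsoventral axis by transcription factors and signals, and 10 of these genes were followed here in single cells of the mouse tail and brain: Shh, Foxa2, Nkx6-1, Olig2, Pax6, Pax3, Pax7, Msx1, Zic1 and Zic2. All 10 were found among the 19608 genes of the molecule tables. The cells carried GFP from a reporter placed in the Sox1 gene (genotype Sox1-GFP+) and were sorted by flow cytometry for GFP from trypsin-dissociated tissue, 1 library from the postnatal tail and 1 from the adult brain. Sox1 is among the earliest genes of neuroepithelial cells. The tissue, the age of the mice and the library differed together, so these 3 cannot be told apart. Postnatal tissue in the study came from mice of about 1 to 5 days and adult tissue from mice of about 4 to 6 weeks. Each library was 1 biological replicate, and whether it pooled animals is not given in the sources used here. With 1 library per tissue no test between the tissues was possible, and every interval below is a 95% interval that covers counting error only.

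After cells with over 200 and under 4000 genes and under 40% mitochondrial molecules were kept, 1964 of 2469 tail barcodes and 7988 of 12111 brain barcodes remained. The kept tail cells held 2817103 molecules (median 1282.5 per cell) and the kept brain cells 6424466 (median 696 per cell), so the tail cells were read more deeply. The libraries shared 29 barcodes, 18 of them among the kept cells, and these 18 held 9 of the Nkx6-1 molecules of the tail and 1 of the 7 of the brain. Sox1 itself gave a molecule in 9.78% of the tail cells, against 8.45% in the brain, at these unequal depths. Once all cells were thinned to the same number of molecules, the order was reversed. The Sox1 shares were then 3.55% (2.77 to 4.47) in the tail and 4.32% (3.86 to 4.81) in the brain, with overlapping intervals. The tail sort also held other cell types. Of the tail cells 178 carried at least 10 molecules of 4 fibroblast markers (collagens and decorin), 73 carried as many of 5 keratins and 1 of 4 macrophage genes, against 2, 0 and 36 brain cells.

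In the developing spinal cord, Sonic hedgehog (Shh) from the notochord and the floor plate at the ventral midline and BMP and Wnt proteins from the dorsal roof plate form opposing gradients. Progenitors read these signals by switching on sets of transcription factors that repress one another, and each resulting domain gives rise to its own class of neurons. Foxa2 marks the floor plate, Nkx6-1 a broad ventral region, and Olig2 the domain that makes motor neurons and then oligodendrocyte precursors. Pax6 spans the intermediate progenitors, Pax3, Pax7 and Msx1 are set by dorsal signals, and the zinc finger genes Zic1 and Zic2 are dorsal. In the adult spinal cord, ependymal cells and the neurons that contact cerebrospinal fluid (CSF) around the central canal come from ventral progenitors.

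The levels of 5 members were called different between tail and brain cells. Ventral Nkx6-1 and Foxa2 were found in the tail and were nearly or wholly without molecules in the brain, Pax6 and Msx1 were higher in tail cells, Olig2 was higher in brain cells, and Pax3, Zic1 and Zic2 had ratios whose intervals included 1. Levels are molecules summed over kept cells per 1000000 molecules of the library (CPM), not corrected for transcript length, and in such a sum fewer cells with a gene and less of its RNA per cell cannot be told apart. A gene was called when it had at least 20 molecules over both sides and the whole interval of its ratio lay beyond 2-fold. Of the 10 genes 8 had enough molecules. Of these 4 were called higher in tail cells, where 14.8% of the 12982 genes tested were called so, and 1 was called higher in brain cells, against 8.47% of genes.

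Shh, the secreted ventral signal (chr5:28456815-28467256, minus strand, in the GRCm38 build), had 19 molecules in the tail, each in a different cell, and none in the brain. This equals 6.74 CPM (4.06 to 10.5) in the tail. The brain limit was set at 0.467 CPM, the level of 3 molecules, and the tail level was 14.4-fold above it. Shh had a ratio of tail to brain with a lower bound of 10.6. Its total stayed under the 20 molecules a call required.

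Foxa2, the winged-helix factor of the floor plate (chr2:148042877-148046969, minus strand), had 107 molecules in 81 tail cells and none in 7988 brain cells. The tail level was 38.0 CPM (31.1 to 45.9), at least 81.3-fold above the brain. The brain's absence of molecules allowed a share of up to 0.0462% of cells.

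Nkx6-1, a homeodomain repressor of ventral progenitors (chr5:101658139-101664996, minus strand), had 1193 tail and 7 brain molecules. The levels were 423 CPM (400 to 448) and 1.09 CPM (0.438 to 2.24), a ratio of 389 (188 to 969). It was found in 644 tail cells, 280 of which held 2 or more molecules and the highest 11, whereas each of the 7 brain molecules was in a cell of its own. Nkx6-1 alone made up 44.9% of the 2656 molecules of the 10 genes in the tail.

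Olig2, the basic helix-loop-helix factor of motor neuron and oligodendrocyte progenitors (chr16:91225457-91228677, plus strand), went the other way. It had 67 molecules in 38 tail cells and 686 molecules in 572 brain cells. Its level of 107 CPM (98.9 to 115) in the brain was 4.49-fold (3.49 to 5.86) that of 23.8 CPM (18.4 to 30.2) in the tail.

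Pax6, a paired-box factor of intermediate progenitors and of forebrain neurogenesis (chr2:105668900-105697364, plus strand), was found in both. The tail had 879 molecules in 551 cells, at 312 CPM (292 to 333), and the brain 630 molecules in 519 cells. The ratio of tail to brain was 3.18 (2.87 to 3.53). An antisense gene that overlaps it, Pax6os1, had only 16 tail and 3 brain molecules.

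Among the dorsal genes Msx1, a homeobox target of BMP signals (chr5:37820485-37824583, minus strand), was the only member called. It had 120 molecules in 89 tail cells and 60 molecules in 51 brain cells, and its level of 42.6 CPM (35.3 to 50.9) in the tail was 4.56-fold (3.32 to 6.33) that in the brain. Zic1 (chr9:91358058-91365810, minus strand) had 171 tail and 442 brain molecules, at 60.7 CPM (51.9 to 70.5) and 68.8 CPM (62.5 to 75.5), a ratio of 0.882 (0.735 to 1.05). Zic2 (chr14:122475435-122479852, plus strand), with 35 and 94 molecules, had a ratio of 0.849 (0.559 to 1.26), or 1.03 by means over cells. Pax3 (chr1:78101267-78197134, minus strand), with 58 and 122 molecules, had a ratio of 1.08 (0.779 to 1.49), which fell to 0.830 when the libraries were scaled by TMM factors. Pax7 (chr4:139737062-139833528, minus strand) was nearly without molecules in both tissues, with 7 and 4. Zic4, which overlaps Zic1 on the opposite strand, had 21 tail and 122 brain molecules, and how the counting treated strand is not given in the sources used here.

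**Figure D1:**
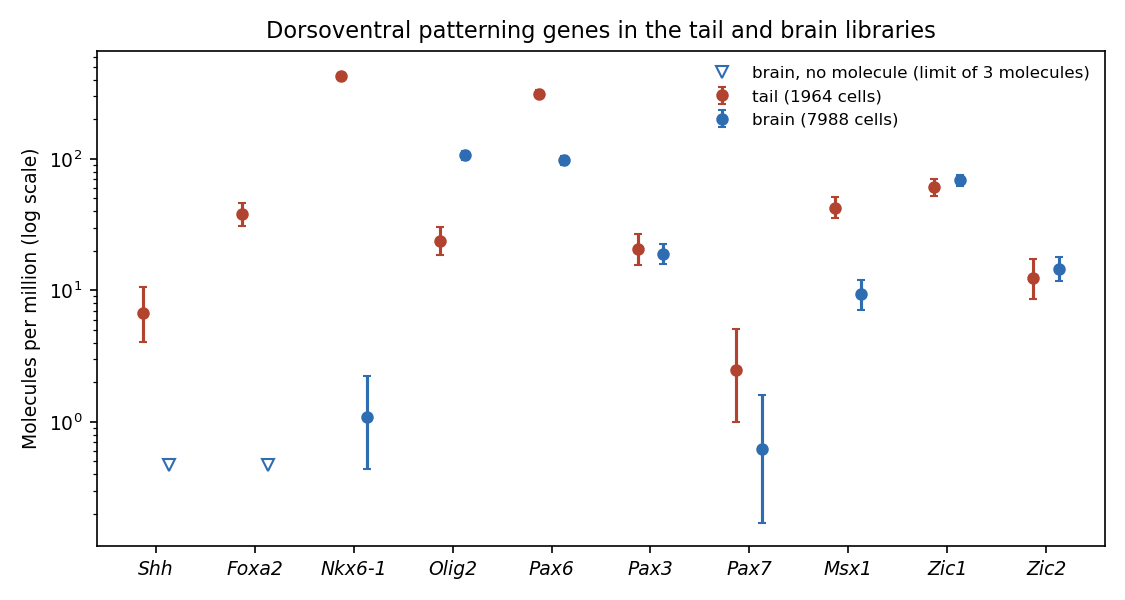
Level of each of the 10 genes in the tail (red) and brain (blue) library, in molecules per 1000000 on a log axis, with exact 95% Poisson bars (1 library each). Nkx6-1 stands at 423 against 1.09, Olig2 at 23.8 against 107, and open triangles mark the limit of 3 molecules for Shh and Foxa2 in the brain.

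These differences were also seen in the share of cells with a molecule once each cell was thinned to 400 molecules, which left out 19 tail and 718 brain cells. Nkx6-1 was found in 15.2% (13.6 to 16.9) of 1945 tail cells and 0.0275% (0.00333 to 0.0993) of 7270 brain cells, against 32.8% and 0.0876% before thinning. Pax6 was found in 12.2% (10.8 to 13.7) and 3.58% (3.16 to 4.03), and Olig2 in 0.925% (0.549 to 1.46) and 3.99% (3.55 to 4.46). Foxa2 was found in 1.49% of thinned tail cells, and Msx1 in 1.70% against 0.206% in the brain. For Zic1 the thinned shares were 2.01% (1.43 to 2.73) and 2.31% (1.98 to 2.68), so no difference was detectable at this depth.

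The members were also read in the non-neural-marked cells of the same tail library. Whether a molecule there came from free RNA, a doublet or the cell itself was not tested. Nkx6-1 had a molecule in 2 of 178 fibroblast-marked cells, 1.12% (0.136 to 4.0). It had one in 0 of 73 keratinocyte-marked cells, which allows up to 4.93%. These cells held medians of 1991.5 and 2286 molecules. Pax6 was found in 1 of the fibroblast-marked and none of the keratinocyte-marked cells. Both shares lie far below those of all tail cells, 32.8% for Nkx6-1 and 28.1% for Pax6. Zic1 was the exception, with a molecule in 18 of 178 fibroblast-marked cells, 10.1% (6.10 to 15.5), at 53.8 CPM. After thinning its share there was 2.81% (0.918 to 6.43), which overlapped the 2.01% of all tail cells. Shh was the only member found in keratinocyte-marked cells, 3 molecules in 3 cells, and 2 further Shh cells were fibroblast-marked, so 5 of its 19 molecules lay in cells marked at this limit. With 3 or more molecules in place of 10, 6 of the 19 Shh cells held fibroblast and 6 keratinocyte markers. As many astroglial molecules were held by 3, and these sets can share cells. In fibroblast-marked cells Foxa2, Pax3 and Pax7 had no molecule and Shh, Nkx6-1, Olig2, Pax6, Msx1 and Zic2 had 1 to 3 each.

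Tail cells were then divided by 5 markers. A cell joined the Tmem212, Top2a, Pkd2l1 or Robo3 group with at least 2 molecules of that gene. The Igfbp5 group was the upper 50% of tail cells by the Igfbp5 share of their molecules, without 2 molecules of any of the other 4. The groups held 926 Igfbp5, 37 Tmem212, 103 Top2a, 69 Pkd2l1 and 49 Robo3 cells, with 1 cell in both the Tmem212 and the Top2a group. Each was compared with all other tail cells, so the cells of a group are not replicates and share 1 library.

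**Figure D2:**
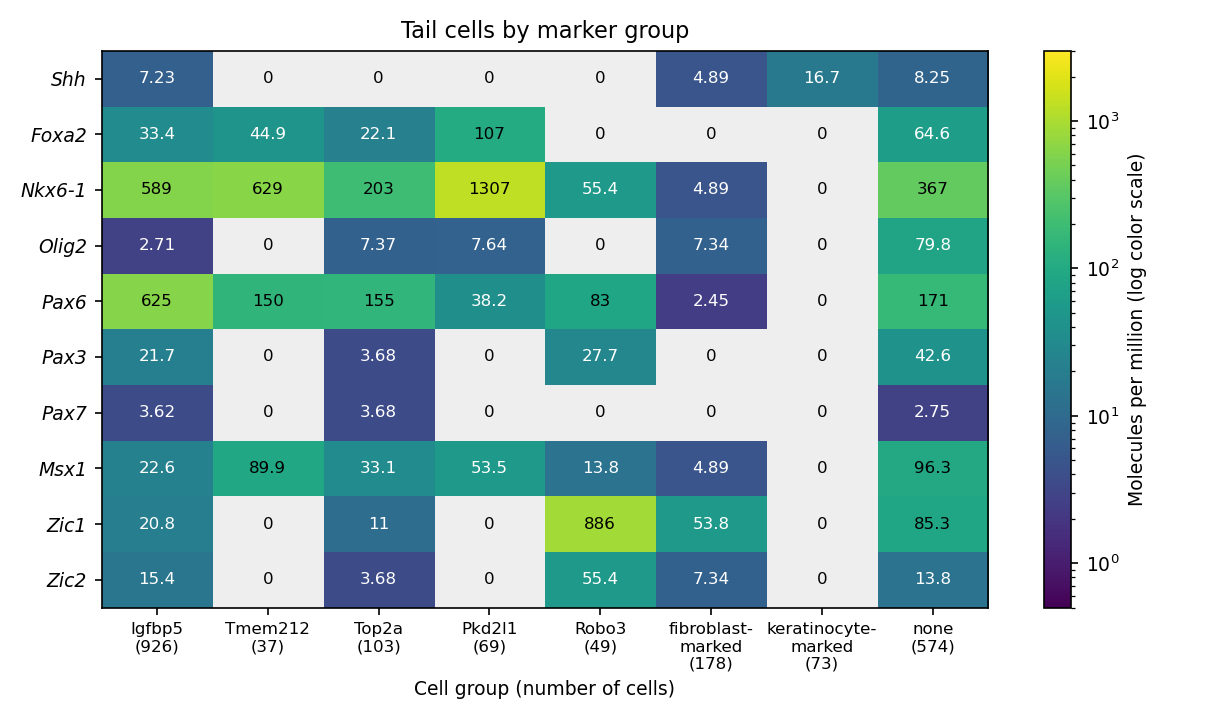
Level of each of the 10 genes (rows) in the marker groups of tail cells (columns, number of cells in brackets), in molecules per 1000000 on a log color scale, with grey for no molecule and fibroblast- and keratinocyte-marked cells allowed to overlap the marker groups. Pax6 is highest in the Igfbp5 group (625), Nkx6-1 in the Pkd2l1 group (1307) and Zic1 in the Robo3 group (886).

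Pax6 was higher in Igfbp5 cells, and Olig2 and Zic1 were lower. Igfbp5 encodes a binding protein of insulin-like growth factors. Pax6 was at 625 CPM (579 to 673) in these cells and 110 CPM in the other tail cells, 5.68-fold (4.83 to 6.71) higher, and 423 of the 551 Pax6 cells lay in this group. Nkx6-1 was at 589 CPM (545 to 636) against 316 CPM, a ratio of 1.86 (1.66 to 2.09) that was not called, and 389 of 926 cells had it. Olig2 had 3 molecules in the 926 cells and was 13.8-fold (4.51 to 68.7) lower, although with a wider Igfbp5 group, the upper 2 of 3 parts of the cells, its ratio was 0.283 (0.150 to 0.504) and not called. Zic1 at 20.8 CPM was 4.16-fold (2.67 to 6.77) lower, where the other side held the Robo3 cells that the group's definition left out. One of the 8 members tested was thus called higher and 2 lower, beside 2.89% and 7.20% of all genes tested. Without the fibroblast-, keratinocyte- and macrophage-marked cells, which carried nearly no Pax6, the Pax6 ratio was 3.48 (2.99 to 4.06), the Nkx6-1 ratio was 1.23 (1.1 to 1.38), the Foxa2 ratio moved from 0.817 to 0.421 (0.262 to 0.659), and Msx1 was also called lower, at a ratio of 0.240 (0.138 to 0.394).

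The Igfbp5 cells held astroglial markers (Slc1a3, Agt, Aqp4 and Gja1) at 1425 CPM in sum, with 3 or more molecules in 25.6% of cells. Fibroblast markers were at 630 CPM, and 10 of the cells were fibroblast-marked. Ependymal markers (Tmem212, Foxj1, Dynlrb2 and Ccdc153) were at 478 CPM, against 518 CPM over all tail cells, and all 4 Schwann cell and all 4 macrophage markers were at 0. Foxa2 was at 33.4 CPM (23.5 to 46.1) in them, in 26 cells, against 40.9 CPM in the other tail cells. Shh was found in 8 Igfbp5 cells, with 1 molecule in each. Pax3 was at 21.7 CPM against 19.9 CPM, and Zic2 at 15.4 CPM against 10.5 CPM. The intervals of both ratios included 1.

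Tmem212 marks multiciliated ependymal cells, which line the central canal and ventricles. In the 37 Tmem212 cells, all 4 ependymal markers were found, at 4269 CPM in sum, of which the 1633 CPM of Tmem212 were set by the choice of cells, and none of the 4 neuronal markers. Nkx6-1 was the member found most often, in 21 of 37 cells and at 629 CPM (453 to 850) against 418 CPM in the other tail cells, a ratio of 1.5 (1.08 to 2.04). Pax6 was at 150 CPM in 8 cells, Msx1 had 6 molecules in 4 cells and Foxa2 3 molecules in 3 cells. No molecule of Shh, Olig2, Pax3, Pax7, Zic1 or Zic2 was found, which at this depth allows up to 9.49% of the cells for each. None of the 8 members tested was called in either direction, beside 2.74% of all genes called higher and 0.623% called lower. With a minimum of 1 Tmem212 molecule Zic1 again had no molecule and was called lower, the upper limit of its ratio being 0.459.

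Top2a encodes a topoisomerase of dividing cells. The 103 Top2a cells were mixed, since 20 were also fibroblast-marked and 13 keratinocyte-marked. Nkx6-1 was found in 31 and Pax6 in 26 of them, at 203 CPM (153 to 264) and 155 CPM (111 to 209). Against the other tail cells these were ratios of 0.453 and 0.470, which were not called. Without the non-neural-marked cells the ratios were 0.661 and 0.685. Zic1 had 3 molecules and was the only member called lower, by 5.97-fold (2.01 to 29.3), where 1.40% of genes were called lower and 2.24% higher. That call was lost without the non-neural-marked cells, without doublets, with a minimum of 3 marker molecules and without the cell shared with the Tmem212 group, although the ratio of 0.167 stayed between 0.0922 and 0.170. Foxa2 had 6 molecules in 5 of these cells and Msx1 9 molecules in 7.

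Pkd2l1 encodes a channel subunit of CSF-contacting neurons. The 69 Pkd2l1 cells carried all 5 markers of these neurons, at 4417 CPM in sum. The Pkd2l1 part of this sum was set by the choice of cells. The cells also carried neuronal genes (5434 CPM over 4 markers, with 3 or more molecules in 61 cells) and nearly no astroglial genes (7.64 CPM). Nkx6-1 was at its highest level among the groups here, 1307 CPM (1118 to 1518) against 380 CPM in the other tail cells, 3.43-fold (2.90 to 4.04) higher, and was found in 54 of 69 cells. Pax6 was at 38.2 CPM (12.4 to 89.2) against 325 CPM, 8.51-fold (3.63 to 26.3) lower. Zic1 had no molecule and was 2.78-fold lower at the limit of 3 molecules, with an upper bound of 0.448 for its ratio. This made 1 member higher and 2 lower of 8, beside 3.84% and 3.31% of all genes. Foxa2 was at 107 CPM (58.5 to 180) in 10 cells, a ratio of 3.09 (1.63 to 5.45) that was not called here but was with a minimum of 1 Pkd2l1 molecule (3.61, 2.07 to 5.97). Igfbp5 and Pkd2l1 cells thus both held Nkx6-1, with Pax6 in 423 of 926 of the former and 4 of 69 of the latter.

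Robo3 encodes an axon guidance receptor of commissural neurons, those whose axons cross the midline. The 49 Robo3 cells also carried neuronal genes (4028 CPM over 4 markers). Zic1 was at 886 CPM (682 to 1131) against 39.0 CPM in the other tail cells, 22.7-fold (16.4 to 31.3) higher, with a molecule in 23 of 49 cells and up to 8 in 1 cell. Nkx6-1 was 7.82-fold (3.05 to 28.8) lower, with 4 molecules in 3 cells. The call of 1 member higher and 1 lower stood beside 3.31% and 1.69% of all genes. Zic2 had 4 molecules in 3 cells, a ratio of 4.90 (1.26 to 13.9), and Pax3 2 molecules in 2 cells. Pax6 was at 83.0 CPM in 5 cells, a ratio of 0.261 (0.0956 to 0.571) that was not called, and was called lower without the non-neural-marked cells (0.206, 0.0753 to 0.450). Shh, Foxa2, Olig2 and Pax7 had no molecule in Robo3 cells.

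A further 574 tail cells lay outside these marker groups and had no non-neural mark, and held most of the cells with Olig2 and Msx1. These cells could still hold marker molecules below the limit of a group, and 250 of the 574 had Igfbp5. Olig2 was at 79.8 CPM (60.6 to 103) in them, in 31 of its 38 tail cells, and Msx1 at 96.3 CPM (75.0 to 122), in 51 of its 89. Pax3 was at 42.6 CPM and Foxa2 at 64.6 CPM, in 17 of 39 and 37 of 81 cells. Neuronal markers in sum were at 1359 CPM in these cells and fibroblast markers at 142 CPM.

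Most tail cells held 1 member or none, and the pair found together most often was Pax6 and Nkx6-1. At full depth 1184 of 1964 tail cells (60.3%) had at least 1 member, 370 (18.8%) at least 2 and 18 at least 3, and in cells thinned to 400 molecules the shares were 31.5%, 4.01% and 0.154%. In the brain 19% of cells had at least 1 and 1.94% at least 2, or 10.6% and 0.426% after thinning. Pax6 and Nkx6-1 were found together in 242 tail cells. Nkx6-1 was in 43.9% (39.7 to 48.2) of Pax6 cells and 28.5% (26.1 to 30.9) of cells without Pax6, and in 20.7% (15.7 to 26.4) and 14.5% (12.8 to 16.2) after thinning, where the intervals overlapped. Within the Igfbp5 group the shares were 46.3% (41.5 to 51.2) of 423 cells and 38.4% (34.1 to 42.8) of 503.

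Ventral and dorsal members rarely shared a cell. Of the 737 tail cells with Shh, Foxa2, Nkx6-1 or Olig2, 19 (2.58%, 1.56 to 4.0) also held Pax3, Pax7, Msx1, Zic1 or Zic2, against 191 of 1227 cells without a ventral member (15.6%, 13.6 to 17.7). After thinning these were 1.46% (0.476 to 3.38) and 5.74% (4.65 to 6.99). Nkx6-1 and Zic1 met in 1 cell, which was fibroblast-marked, while Nkx6-1 was in 34.0% of cells without Zic1. In the brain 6.74% (4.83 to 9.09) of ventral-member cells, nearly all Olig2 cells, held a dorsal member, against 6.68% (6.12 to 7.27) of the others, and after thinning 1.71% (0.558 to 3.95) against 3.37% (2.96 to 3.82). Msx1 was the dorsal member seen most with a ventral one, in 14 Nkx6-1 cells, or 15.7% of Msx1 cells.

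Zic1, Zic2 and Pax3 were found with one another more often than in the other tail cells. Zic2 was in 10 of 73 Zic1 cells, 13.7% (6.77 to 23.8), and in 1.1% (0.689 to 1.69) of cells without Zic1, and the thinned shares of 12.8% (4.30 to 27.4) and 0.472% (0.216 to 0.894) did not overlap either. The 10 cells with both were of unlike kinds. Of them 3 lay in the Robo3 group and 2 in the Igfbp5 group, and 2 were fibroblast-marked, a mark that Igfbp5 cells can share. Zic1 was in 6 of 39 Pax3 cells, 15.4% (5.86 to 30.5), against 3.48% (2.71 to 4.40), but the thinned shares, 10.5% (1.30 to 33.1) and 1.92% (1.36 to 2.64), overlapped. Zic2 was in 5 Pax3 cells. Msx1 and Pax3 were found together in no cell. Pax6 was in 26 of 89 Msx1 cells, 29.2%, near the 28.0% of cells without Msx1. Foxa2 and Nkx6-1 shared 32 cells, with Nkx6-1 in 39.5% (28.8 to 51.0) of Foxa2 cells and 32.5% (30.4 to 34.7) of the others. Of the 38 Olig2 cells 8 held Nkx6-1 and 3 held Pax6.

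**Figure D3:**
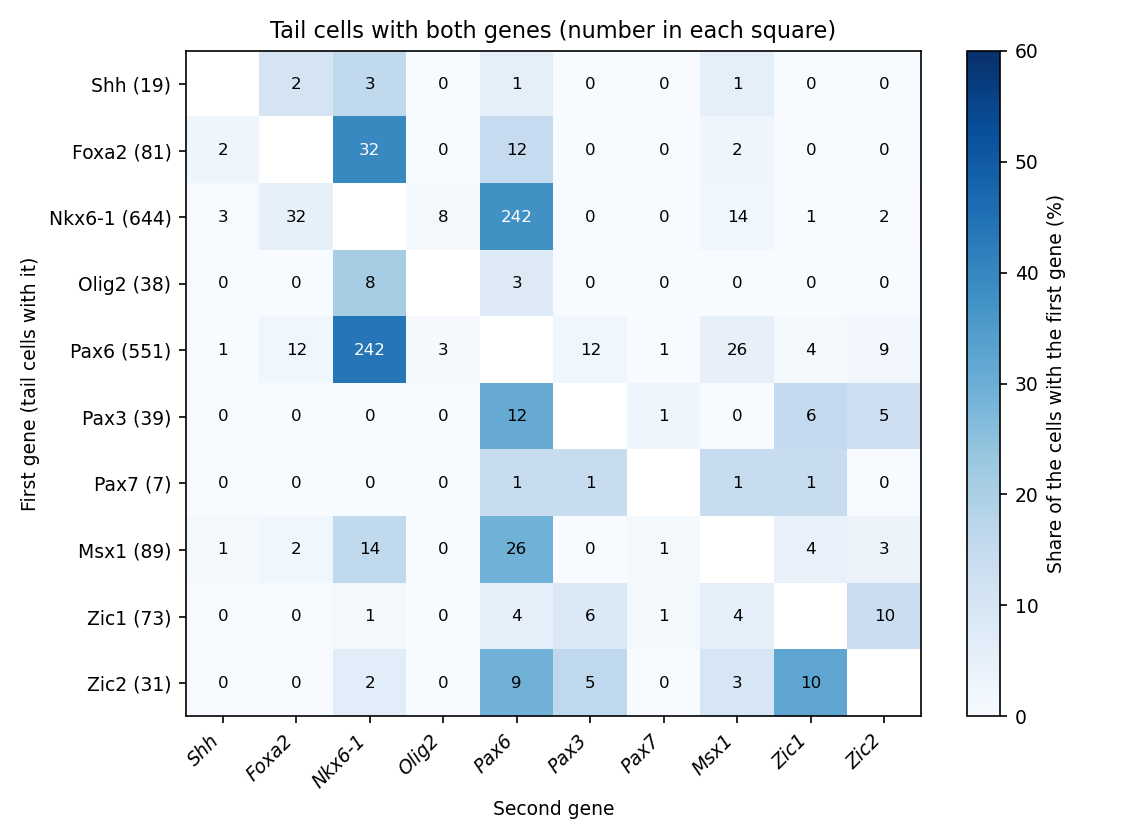
Co-detection of the 10 genes in tail cells at full depth, with the first gene in rows (number of cells with it in brackets), the second in columns, the number of cells with both in each square and the share of the first gene's cells as color. Pax6 and Nkx6-1 share 242 cells, Foxa2 and Nkx6-1 share 32, and Zic2 and Zic1 share 10.

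The genes most enriched in the tail cells with each member differed between most members, and Ddc, Apod and Zic1 each recurred for a pair of them. For each member the 5 genes with the highest lower bound of the ratio between cells with and without it were taken, as a description. For Nkx6-1 they were Pkd2l1, Klhl1, Clic5, Pkd1l2 and Ddc. Pkd2l1 and Pkd1l2 belong to CSF-contacting neurons, and Pkd2l1 was 11.6-fold (8.96 to 15.2) higher and in 66 of 644 Nkx6-1 cells. For Foxa2 they included Iapp, Pdyn, Ddc and Hbb-bs. Pdyn, which encodes the opioid peptide precursor prodynorphin, was at 308 CPM in Foxa2 cells and 29.2 CPM in the others, 10.5-fold (6.87 to 15.9) higher and in 17 of 81 cells. The beta-globin gene Hbb-bs rested on 1 cell with 109 of its 110 molecules. Of the Foxa2 cells 15 held 3 or more neuronal and 10 as many CSF-contacting neuron molecules, and 1 held 3 or more molecules of the 5 notochord markers.

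Pax6 cells were led by Nos1, Pdlim3, AI838599, Oxtr and Gabra4. Oxtr, the oxytocin receptor, was in 151 of 551 Pax6 cells at 278 CPM against 73.1 CPM, 3.80-fold (3.07 to 4.72) higher. Olig2 cells were led by Olig1, Sox10, Cntn1, Lhfpl3 and Bcan, of which Olig1 and Sox10 are factors of the oligodendrocyte lineage. Olig1 was in 25 of the 38 Olig2 cells and 144-fold (84.4 to 258) higher, and Sox10 in 13. Msx1 cells were led by Sox14, Sst, Rit2, Slc30a3 and Syt4, neuronal genes of which Sox14 was in 15 of 89 cells and 36.2-fold (18.1 to 75.3) higher and the neuropeptide gene Sst in 14. Of the Msx1 cells 36 had 3 or more neuronal and 15 as many ependymal molecules.

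Zic1 cells were led by Pou4f1, Skor1, Lmx1b, Pax2 and Apod. Pou4f1, Skor1, Lmx1b and Pax2 are factors of dorsal spinal neurons, and Lmx1b was in 23 of 73 Zic1 cells and 25.2-fold (16.2 to 39.4) higher. Zic2 cells were led by Apod, Zic1, Ptn, Pcp4l1 and Nr4a1, with Apod in only 2 of the 31 cells. Pax3 cells were led by Dct, Dbx1, Zic1, Igfbpl1 and Tnc. Dct, a melanocyte gene, rested on 1 cell with all 25 molecules, and Dbx1 on 3 cells with up to 17 in 1, while Igfbpl1 was in 10 and Tnc in 9 of 39 Pax3 cells. No gene list was made for Shh and Pax7, which were in fewer than 20 tail cells.

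Brain cells were grouped in the same way, with Slc1a3, a glutamate transporter of astroglia and neural stem cells (4830 cells without Stmn2), Stmn2, a gene of young neurons (537 cells), Gdf10 (285), Top2a (198), Tmem212 (53), Igfbp5 (33, by the tail limit) and Pdgfra (4). No brain cell held 2 molecules of Pkd2l1 or Robo3.

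Gdf10 encodes a TGF-beta family ligand, and its cells had higher Zic1, Pax3 and Zic2. Zic1 was at 443 CPM (377 to 516) against 46.2 CPM in the other brain cells, 9.58-fold (7.84 to 11.7) higher and in 99 of 285 cells. Pax3 was 16.0-fold (11.0 to 23.2) higher, with 47 of its 108 brain cells in this group, and Zic2 4.76-fold (2.78 to 7.82). Olig2 had 1 molecule and was 41.4-fold (7.40 to 1637) lower. These 3 calls higher and 1 lower of 6 members tested compare with 3.11% and 2.67% of all genes. Astroglial markers stood at 34917 CPM in Gdf10 cells. The genes leading brain Pax3 cells (Dao, Msx2, Sept4, Frrs1l and Gria4) shared Dao, Msx2, Sept4 and Gria4 with those leading Zic1 cells, which also had Hopx. Zic1 was in 25 of 108 Pax3 cells, 23.1% (15.6 to 32.2), and in 3.90% (3.48 to 4.35) of the other brain cells.

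Msx1 was higher in brain cells chosen for the ependymal gene Tmem212. It was at 253 CPM (152 to 395) in Tmem212 cells, in 13 of 53, and at 6.46 CPM in the other brain cells, 39.2-fold (21.5 to 69) higher. It was the 1 member called higher, beside 5.62% of genes. Olig2, with no molecule, was 2.71-fold lower at the limit of 3 molecules and was the 1 called lower, beside 2.29%. The genes leading brain Msx1 cells were Tm4sf1, Fam216b, Tmem212, Enkur and Iqca. In the tail Msx1 was at 89.9 CPM (33.0 to 196) in Tmem212 cells, a ratio of 2.17 (0.779 to 4.87). Nkx6-1, in 21 of 37 tail Tmem212 cells, had a molecule in 2 of 53 brain ones, 3.77% (0.460 to 13).

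Pax6 in the brain was higher in Stmn2 cells, at 279 CPM (231 to 334) against 85.3 CPM, 3.27-fold (2.65 to 4.0) higher, and lower in Slc1a3 cells, by 2.38-fold (2.02 to 2.80). In Stmn2 cells 1 member was called higher and 2 lower (Olig2 and Pax3), beside 8.60% and 9.30% of genes, and in Slc1a3 cells 1 higher (Pax3, 4.24-fold, 2.46 to 7.84) and 1 lower, beside 6.72% and 17.4%. Top2a cells had Pax6 at 196 CPM in 48 of 198 cells, a ratio of 2.11 (1.61 to 2.74) that was not called, and no member was called among 8.87% of genes higher and 8.02% lower. The 5 genes leading brain Pax6 cells, Ube2c, Hmmr, Ckap2l, Cdc20 and Troap, all belong to cell division, and none of them was among the 5 of tail Pax6 cells. Each was found in only 20 to 55 of the 519 brain Pax6 cells. Of these 519 cells 63 held 3 or more molecules of the cycling genes Top2a, Mki67 and Cenpf in sum. As many astroglial molecules were held by 259 and as many neuronal ones by 194. In the 33 brain Igfbp5 cells Pax6 was at 351 CPM (151 to 691), with 8 molecules in 7 cells and a ratio of 3.61 (1.55 to 7.15). No member was called there, beside 0.704% of genes higher and 0.523% lower.

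Olig2 in the brain was found in 418 Slc1a3 cells, at 120 CPM against 84.3 CPM, a ratio of 1.43 (1.21 to 1.69) that was 2.61 (2.09 to 3.28) and called higher with a minimum of 1 marker molecule. It was also in all 4 Pdgfra cells, with 13 molecules, 8 of them in 1 cell, 26.3-fold (13.9 to 45.3) higher. It was the 1 member called higher in the Pdgfra group, beside 1.16% of genes, and none was called lower, beside 0.197%. The genes leading brain Olig2 cells were Sox10, Ptgds, Gpr17, Gjb1 and Ugt8a, oligodendrocyte genes that were each found in 4 to 16 of the 572 cells, so most Olig2 cells of the brain had no molecule of them. Of these 572 cells 490 held 3 or more astroglial molecules and 15 as many of the oligodendrocyte lineage.

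**Figure D4:**
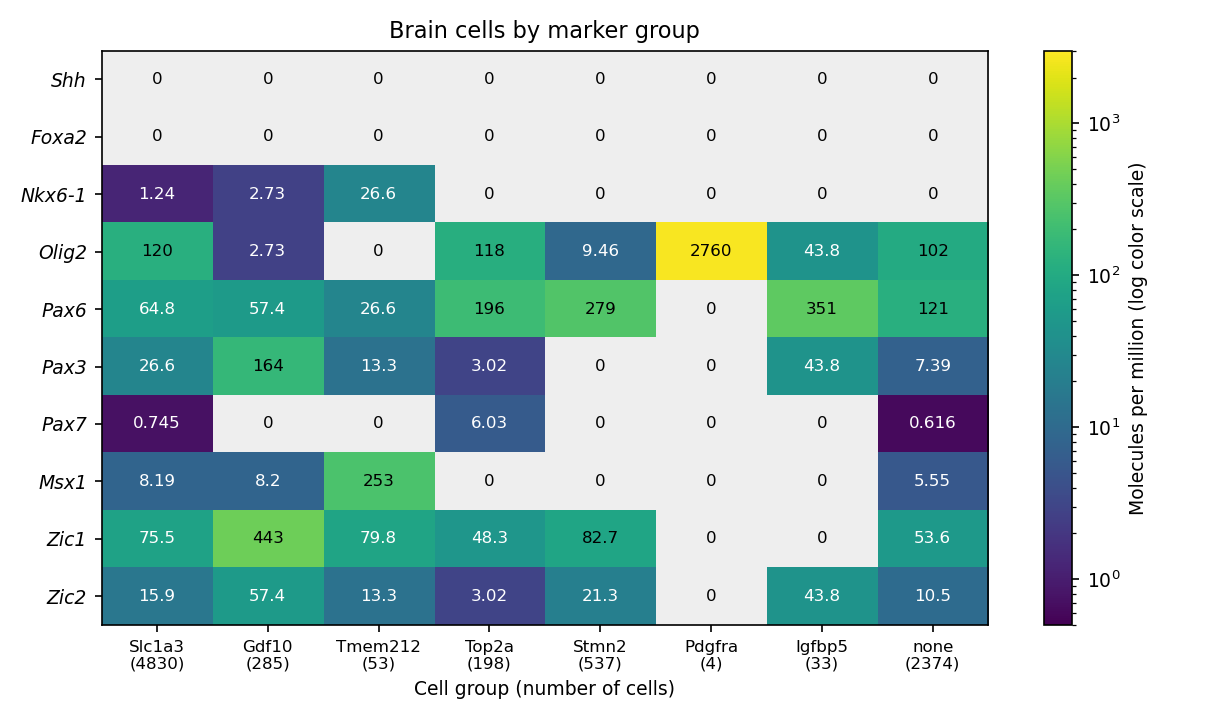
Level of each of the 10 genes (rows) in the marker groups of brain cells (columns, number of cells in brackets, which can share cells), in molecules per 1000000 on a log color scale with grey for no molecule. Zic1 (443) and Pax3 (164) are highest in the Gdf10 group, Msx1 in the Tmem212 group (253), and Olig2 in the 4 Pdgfra cells (2760).

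A wider list of 91 genes of dorsoventral patterning, the 10 members among them, set these results in their pathway. Of the 86 in the files 68 had enough molecules, of which 26 were called higher in tail cells and 10 in brain cells, beside the 14.8% and 8.47% of all genes. Leaving out the members, 22 of 60 were higher in the tail (36.7%). Over those with molecules in both libraries the median log2 ratio of tail to brain was 0.32. For all genes tested with molecules in both it was 0.30. The medians leave out genes without brain molecules, such as Dbx1 and Lhx5, and also Gsx2, which had no tail molecule.

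Among the signals, Ntn1, the commissural axon guidance cue of the floor plate, was at 650 CPM against 29.4 CPM for the brain, 22.1-fold (19 to 25.8) higher. Wnt4 was 29.3-fold (17.4 to 53.4) and Bmp4 46.5-fold (19.3 to 146) higher, so 3 of 11 ligands and antagonists other than Shh were called, all higher in the tail. Of 16 receptors and transducers 2 were called higher in tail cells and 4 in brain cells. The Shh receptor and target Ptch1 was 2.69-fold and the antagonist Hhip 3.74-fold higher in the brain, and Gli1, a target of the same pathway, had a ratio of 0.440 (0.339 to 0.564) that was not called.

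Of 5 ventral factors other than the members, Foxa1 was 31.5-fold (12.9 to 99.98) higher in the tail, and Nkx6-2 was 8.11-fold higher in the brain. The intermediate factor Dbx1 had 102 tail molecules and none in the brain, at least 77.5-fold, whereas Dbx2 was 36.9-fold higher in the brain. Of 7 dorsal factors other than the members 2 were called higher in the tail, Lmx1b (198-fold, 34.7 to 7926) and Olig3 (73.0-fold, 12.2 to 2971), each with 1 brain molecule, and none in the brain. Zic5 had a ratio of 0.874 (0.669 to 1.13) and, like Zic1 and Zic2, was not called. Of the factors of postmitotic neurons 12 of 14 were called higher in the tail. Gata2, Gata3 and Tal1, which specify CSF-contacting and V2b neurons, were 404-fold (71.5 to 16032), 202-fold (55.1 to 1680) and 70.0-fold (33.4 to 176) higher, with 1, 2 and 7 brain molecules, and Lhx5, Pax2, Lbx1 and Sox14 had no brain molecule.

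**Figure D5:**
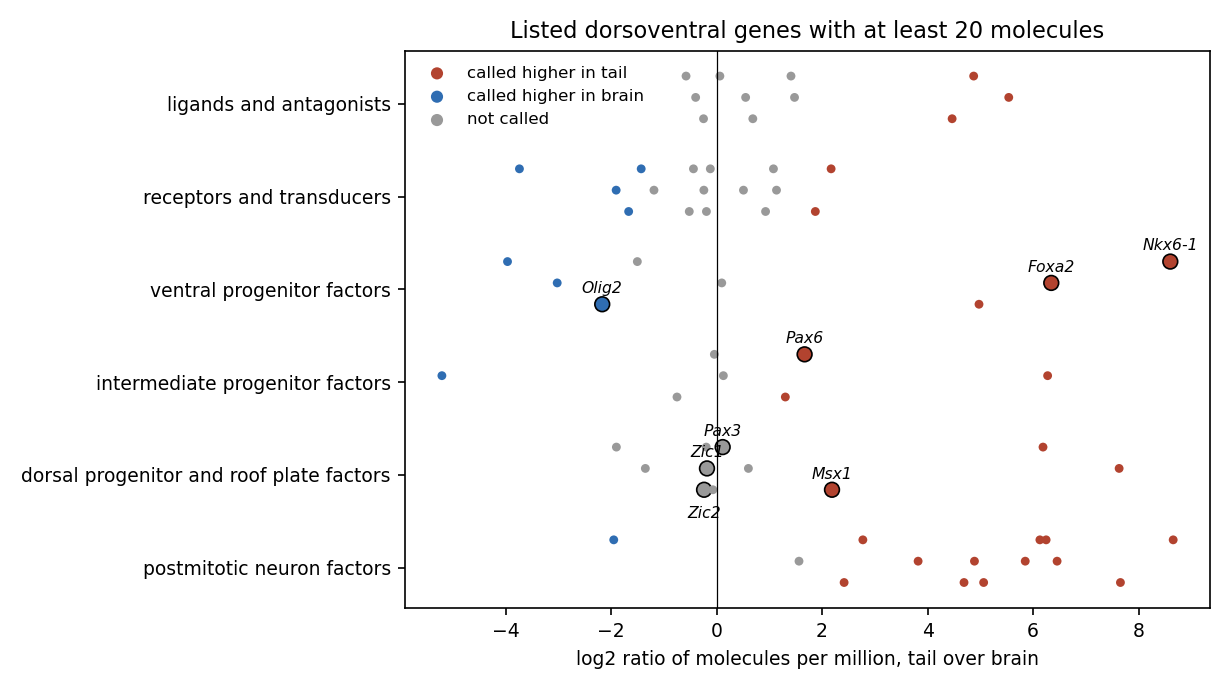
Log2 ratio of CPM, tail over brain, for the listed dorsoventral genes with at least 20 molecules, by role, with the members outlined and named and points at the limit of 3 molecules where the brain had none (Gsx2, with none in the tail, is not drawn). Most postmitotic neuron factors lie to the right, and Zic1, Zic2 and Pax3 lie near 0.

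The wider list was also read in the tail groups. In Igfbp5 cells Ntn1 (1295 against 233 CPM, 5.55-fold), Sp8 (3.83-fold), Spon1 (3.62-fold) and Id3 (2.47-fold) were called higher beside Pax6. Of 58 listed genes 5 were called higher there and 22 lower, beside 2.89% and 7.20% of all genes. Among the lower ones were 12 of 13 postmitotic factors. The definition of this group put the Pkd2l1 and Robo3 cells on the other side, so these lower calls were partly set by the choice of cells. In Pkd2l1 cells Gata2 (22.7-fold, 16.7 to 30.9), Tal1 (18.5-fold), Gata3 (12.8-fold, itself a CSF-contacting neuron marker), Nkx2-2 (7.70-fold) and Lhx5 (4.51-fold) were called higher beside Nkx6-1, and Gas1 and Smo, receptor components of Shh signalling, had no molecule. This made 6 of 58 listed genes higher and 9 lower in Pkd2l1 cells, beside 3.84% and 3.31% of all genes. In Robo3 cells 11 of 58 listed genes were called higher and 6 lower, beside the 3.31% and 1.69% of all genes. The higher ones were Zic1 and 10 others, among them Pax8 (91.2-fold, 42.0 to 214), Pou4f1 (70.4-fold), Lmx1b (38.9-fold), Lbx1 (38.0-fold) and Pax2 (24.8-fold) of spinal interneurons, and Zic4 (19-fold, 6.49 to 50.3), which overlaps Zic1. No listed gene was called in Tmem212 cells.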

How the data were processed

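Sorted cells were captured on the BD Rhapsody system, and the deposited files give, per barcode and gene, counts of molecules made by the authors with the manufacturer's pipeline (version 1.10.1 in the file headers, GRCm38, GENCODE M19), after recursive substitution error correction. Gene positions are from GENCODE M21 of the same build. Counts were summed per library or cell group in Python 3.11.15 (scipy 1.17.1), with exact conditional binomial intervals of ratios, exact Poisson intervals of levels and Clopper-Pearson intervals of shares, each at 95%, and no test, since there was 1 library per tissue. Calls and intervals were tested on library totals simulated as Poisson counts. These hold no cells, so molecules clumped within cells were not covered. Thinning was tested on simulated cells. Scrublet (scanpy 1.11.5) marked 5 tail and 76 brain doublets, which were kept. TMM and median-ratio scaling used edgeR 4.0.16 and DESeq2 1.42.0. A fold against 0 used 3 molecules. The named genes were the members, group markers, listed pathway and cell type genes and the 5 leading genes of each member. Some of these genes are not reported here. The members, markers and lists were chosen with earlier results of these data known. Molecule counts before error correction were tried as an alternative.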

Additional observations from a re-analysis of the deposited data

Results flagged for a closer look

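Members were also found in barcodes that the cell filter left out, above the 3 molecules that a count of 0 allows. In the 505 tail barcodes left out, Nkx6-1 had 13 molecules (83.6 CPM, against 423 CPM in kept cells) and Pax6 11 molecules (70.7 CPM, against 312 CPM). In the 4123 brain barcodes left out, Pax6 had 50 molecules (48.2 CPM), Olig2 43 (41.4 CPM), Zic1 30 (28.9 CPM), Pax3 20 (19.3 CPM) and Msx1 4 (3.85 CPM). For Pax3 this was close to the 19 CPM of kept brain cells. The other genes were below their levels in kept cells, which were 98.1 CPM for Pax6, 107 CPM for Olig2, 68.8 CPM for Zic1 and 9.34 CPM for Msx1.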

How the results depend on the processing

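Of 26 called ratios of a member, none changed direction under any alternative run, and 149 of 164 repeats kept the call. Of the 15 lost calls 9 came from asking for 4-fold. Asking for 4-fold left 2 members higher in the tail (Foxa2 and Nkx6-1) and 0 in the brain, 970 and 541 genes in all against 1923 and 1099, 4 listed genes higher in the brain against 10, 13 and 19 listed genes higher and lower in tail groups against 23 and 44, and 1 member lower in a tail group against 6. By the ratio of means over cells, with no interval, 3127 and 1780 genes passed 2-fold. At full depth the share of cells with a member was 60.3% in the tail and 19% in the brain, and at 800 molecules 49.2% and 20.2%, against 31.5% and 10.6% at 400. Thinning to 800 left out every cell with fewer molecules, and the brain median was 696. The 20.2% was thus a share of the deeper brain cells only. Without the non-neural-marked cells the thinned tail share was 35.7%. The shares with at least 2 members were 18.8% and 1.94% at full depth against 4.01% and 0.426%. Alternatives added 7 calls: 4 with a minimum of 1 marker molecule, 2 without the non-neural-marked cells, and Shh without a minimum of molecules. Olig2 was no longer called lower in tail Igfbp5 cells with the upper 2 of 3 parts by Igfbp5 (ratio 0.283), nor in brain Tmem212 cells at a 20% mitochondrial limit. TMM and median-ratio scaling lowered all ratios of tail to brain by 0.39 and 0.37 on the log2 scale and changed no call of a member. Under them Pax3, at a ratio of 1.08, fell to 0.830 and 0.841. With 1 library per tissue no replicate could be left out, and no paired analysis was possible because there are no replicates. Shh and Pax7 stayed below the depth that a call needs.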
